A study of Mus musculus with 35 samples.

Results

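Cholesterol synthesis and its control are described here through 29 mouse genes, chosen by name from the per-library gene tables of sorted epithelial cells. They comprise 19 enzymes of cholesterol synthesis, 5 genes of the SREBP control machinery and 5 genes of sterol transport and efflux. The tables list 53715 genes for back skin and 49585 for tail skin, palate and tongue, and all 29 genes are in every table. All 29 passed the filter on low counts in each fit. The genes were chosen with earlier results of these data known. Their counts beside the share of all genes are therefore descriptive and not independent of the data.

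Cells build cholesterol from acetyl units. Enzymes of the mevalonate segment make isoprenoid units, those of the isoprenoid segment join them into squalene, and those of the sterol segment close squalene into lanosterol and trim it to cholesterol. The transcription factor SREBP-2, encoded by Srebf2, drives most of these genes, while SREBP-1, encoded by Srebf1, acts more on fatty acid synthesis. SCAP carries both factors out of the endoplasmic reticulum when sterols are low, and the INSIG proteins hold SCAP back when sterols are high. In skin, cholesterol is, with ceramides and free fatty acids, a building block of the lipid barrier laid down between cornified cells, and the sebaceous gland is a second site of strong lipid synthesis.

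RNA was measured in 35 libraries of 13 groups from C57BL/6J mice 2 months old. All mice carried K5-tTA and pTRE H2B-GFP, a pair of transgenes in which the keratin 5 promoter drives histone-bound GFP. Doxycycline switches the GFP off, and each division then dilutes what is left, so only cells in which that promoter had been active could carry label. All mice were given doxycycline, in skin experiments for 2 weeks and in oral experiments for 10 days. Sorted label-retaining cells (LRC, the slow-cycling fraction) and cells without label (nLRC, the fast-cycling fraction) were compared in palate and tongue basal layer, with n = 2 libraries per group, in tail and back basal layer, with n = 3 libraries per group, and in the back spinous layer, also with n = 3. The hair follicle bulge of tail and back skin and the granular layer of back skin gave n = 3 libraries each. The labels do not state whether the libraries of a group are from different animals. The p-values therefore reflect only the scatter among these libraries, part of which may be technical.

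Reads assigned to genes ranged over back skin libraries between 9785944 and 20560481. Tail libraries held between 8421582 and 14093720 of them, palate libraries between 11680595 and 15641556, and tongue libraries between 11847897 and 13034075. Layer markers followed most labels in back skin, but the libraries labelled spinous nLRC had 11013, 4953 and 5151 summed TPM of 6 spinous markers, against 44326, 42599 and 27103 TPM in spinous LRC. In the same libraries 10 mitosis markers summed to 221, 369.5 and 223 TPM, against 30.4, 54.9 and 65.3 TPM in spinous LRC, and 12 sebocyte markers to 4795, 8057 and 3665 TPM, against 755, 757 and 715 TPM in spinous LRC. Pparg, the master regulator of sebocyte differentiation, averaged 105 TPM in the libraries labelled spinous nLRC and 0.487 TPM in spinous LRC. Every comparison that uses the libraries labelled spinous nLRC carries this difference, and the part of sebaceous cells in the results was not tested. Results that do not use them are given beside those that do. In these bulk libraries fewer cells of a type and less RNA per cell cannot be told apart. Library 2 of the back bulge stood apart too, with the lowest depth of back skin (9785944 reads) and a TMM scaling factor of 0.5, against 0.958 to 1.19 in the other 17 back skin libraries.

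Upstream sequence of 5 genes is shown because Hmgcs1, Mvd, Idi1 and Msmo1 moved together between the spinous groups, and Sc5d moved the other way. Each run is the 200 bases before the RefSeq transcription start on build GRCm38.p6, written 5′ to 3′ on the gene's strand, with capitals for the 2 motifs searched on both strands, CCAAT, which appears as ATTGG when it lies on the other strand, and the sterol regulatory element TCACNCCAC, the binding site known for SREBPs.
Hmgcs1 (chr13:119690151-119690350, plus strand): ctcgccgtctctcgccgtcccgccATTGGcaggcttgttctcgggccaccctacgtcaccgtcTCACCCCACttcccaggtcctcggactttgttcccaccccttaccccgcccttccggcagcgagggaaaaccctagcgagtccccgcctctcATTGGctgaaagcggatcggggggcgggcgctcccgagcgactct
Mvd (chr8:122443423-122443622, minus strand): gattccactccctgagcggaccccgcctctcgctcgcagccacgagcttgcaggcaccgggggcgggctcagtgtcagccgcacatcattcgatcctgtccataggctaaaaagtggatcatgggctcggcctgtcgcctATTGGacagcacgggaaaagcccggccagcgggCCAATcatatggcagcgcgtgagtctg
Idi1 (chr13:8885406-8885605, plus strand): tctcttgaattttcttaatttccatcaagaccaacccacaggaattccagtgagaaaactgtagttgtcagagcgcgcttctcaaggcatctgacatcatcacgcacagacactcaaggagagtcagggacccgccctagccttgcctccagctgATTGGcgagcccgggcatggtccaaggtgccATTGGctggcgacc
Msmo1 (chr8:64733579-64733778, minus strand): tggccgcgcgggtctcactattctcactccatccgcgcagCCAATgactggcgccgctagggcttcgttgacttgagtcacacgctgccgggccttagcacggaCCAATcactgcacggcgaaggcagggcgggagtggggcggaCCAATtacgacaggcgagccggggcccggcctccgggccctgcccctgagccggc
Sc5d (chr9:42264301-42264500, minus strand): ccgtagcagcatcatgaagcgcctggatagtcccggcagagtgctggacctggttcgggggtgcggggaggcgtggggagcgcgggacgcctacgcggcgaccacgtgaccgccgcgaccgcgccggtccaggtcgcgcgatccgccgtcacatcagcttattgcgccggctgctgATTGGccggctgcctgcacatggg
In windows reaching from 250 bases before to 50 bases after the start, 20 of 23 genes with a RefSeq entry held CCAAT, against 41.06% of 27025 mouse genes. Only Hmgcs1 among the 23 held TCACNCCAC, a motif present in 1.44% of all genes. A match is a description of the letters in this window and not a measured binding site. Fdps, Fdft1, Sqle, Stard4, Npc1 and Abcg1 had no entry in the table.

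TPM is transcript level scaled by exon length and to a fixed total, so levels can be compared between genes. In back basal LRC, Hmgcs1, which makes HMG-CoA, was the most abundant enzyme at 193 ± 35.6 TPM (mean ± SD, n = 3), and the decarboxylase Mvd was the least abundant at 3.31 ± 2.19 TPM. The control genes were abundant in the same cells, with means of 161 TPM for Scap, 129.7 TPM for Srebf1 and 107 TPM for Srebf2. Insig1, itself a known SREBP target, had 6.79 TPM. By group mean within back skin, 20 of the 29 genes were highest in the libraries labelled spinous nLRC and 5 in the granular layer, while 15 were lowest in basal LRC and 10 in the bulge.

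Summed over the 19 enzymes, transcript levels were 517, 559 and 544 TPM in basal LRC, 937, 931 and 698 TPM in spinous LRC and 1262, 1232 and 919 TPM in the granular layer. The 3 groups did not overlap between basal LRC and spinous LRC, nor between basal LRC and granular layer, while spinous LRC and granular layer did. The libraries labelled nLRC had 1822, 2798 and 1351 TPM in the spinous layer, against 555, 687 and 606 TPM in the basal layer. The bulge libraries spread widely, with 874, 251 and 561 TPM. Since Hmgcs1 alone weighs on this sum, the ratio of spinous LRC to basal LRC was also taken without it, and was 1.84 in place of 1.58. TPM of back skin are not set against TPM of the other tissues here, apart from alternative fits on TPM. The reason is that protein-coding genes held 22.0 to 34.8% of TPM in tail and oral libraries and 71.0 to 90.2% in back skin. Tail and oral TPM are given side by side below.

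**Figure D1:**
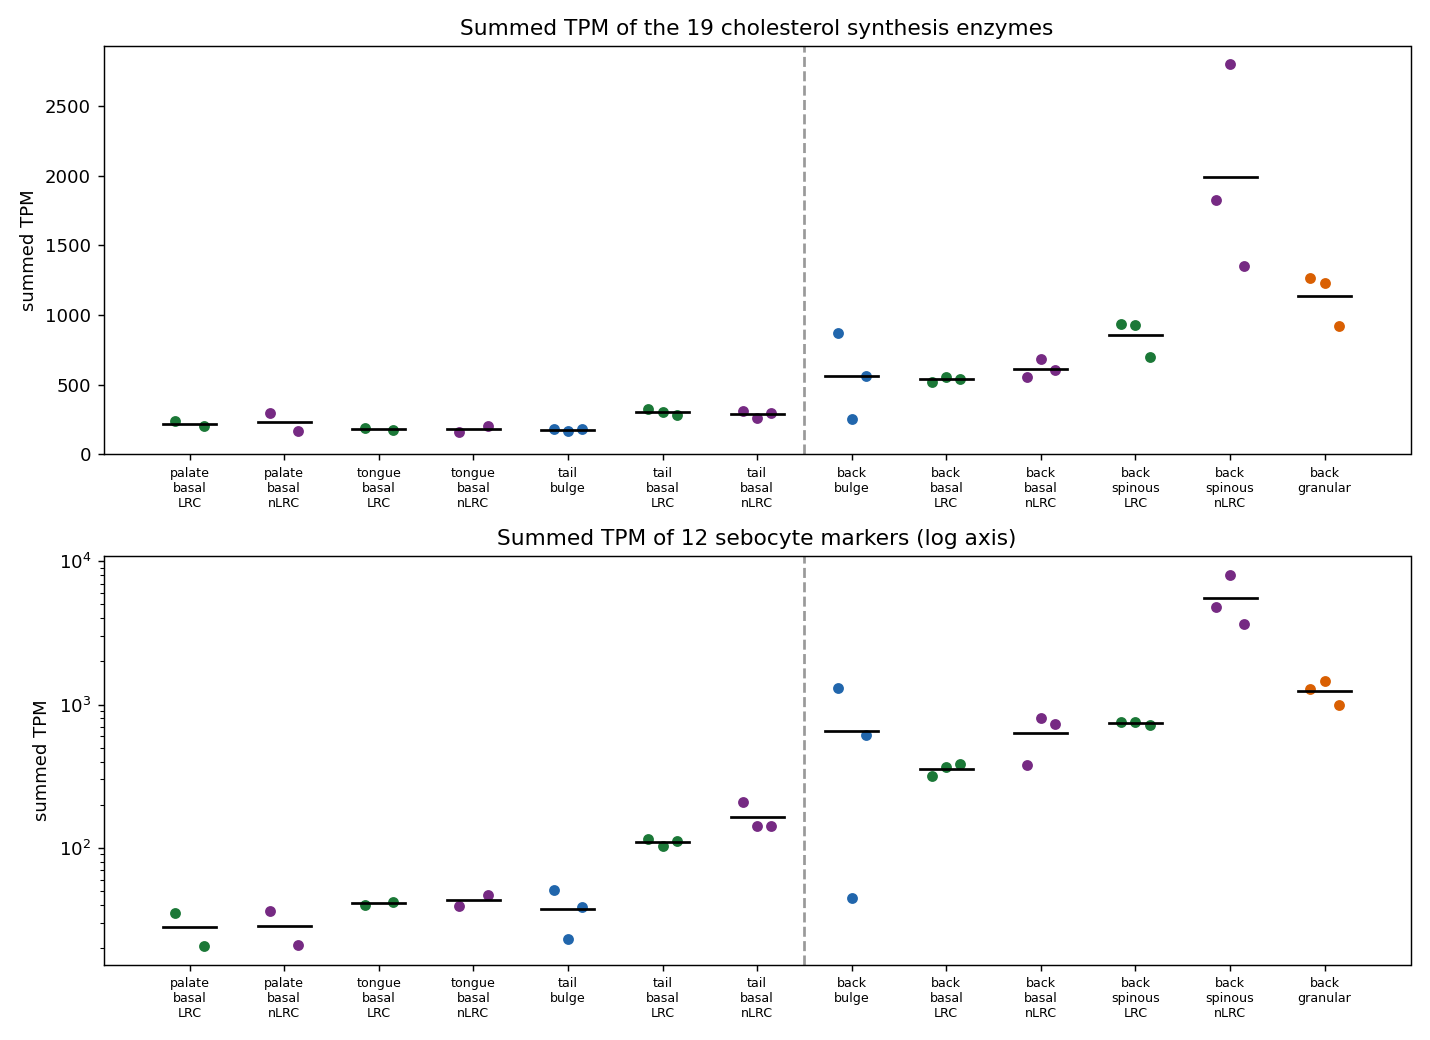
Summed TPM of the 19 cholesterol synthesis enzymes (upper panel, linear axis) and of 12 sebocyte markers (lower panel, log axis) in each of the 35 libraries; points are libraries, bars are group means, and the dashed line parts tail and oral libraries from back skin, whose TPM are not comparable. In both panels the libraries labelled back spinous nLRC are the highest of back skin, and the granular libraries lie above the basal LRC libraries.

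Label-retaining cells of the spinous layer had less transcript of most enzymes than the cells labelled spinous nLRC, and more of a few late genes. Of the 29 genes, 14 fell and 3 rose in spinous LRC relative to the libraries labelled spinous nLRC, against 8.63% of all 16574 tested genes that fell and 6.88% that rose. The median log2 fold change of the 29 was -1.15, beside -0.01 over all tested genes. Of the 19 enzymes 11 fell and 2 rose.

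In the mevalonate segment, Acat2, the cytosolic thiolase that joins acetyl-CoA units, had 33.02, 32.6 and 22.2 TPM in spinous LRC, against 218, 341 and 141 TPM in the libraries labelled spinous nLRC (log2 fold change -2.999 ± 0.33 (SE), edgeR adjusted p = 4e-05). Hmgcs1 had 200.3, 228 and 226 TPM in spinous LRC and 409, 616 and 329.7 TPM in spinous nLRC (log2 fold change -1.16 ± 0.28 (SE), edgeR adjusted p = 0.00937). Neither gene overlapped between the groups, and the fitted difference of Acat2 was larger than that of Hmgcs1. Mvd, which completes the isoprenoid unit, fell by the largest step of the 29 genes, to 20.8, 15.6 and 6.40 TPM in spinous LRC, against 103, 164 and 69.7 TPM in spinous nLRC (log2 fold change -3.16 ± 0.57 (SE), edgeR adjusted p = 0.00138). The kinases Mvk and Pmvk did not pass the test, at 0.54 and -0.50 on the log2 scale.

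In the isoprenoid segment, the isomerase Idi1, the farnesyl diphosphate synthase Fdps and the squalene synthase Fdft1 fell. Idi1 had 20.6, 23.4 and 10.5 TPM in spinous LRC, against 86.7, 159 and 65.03 TPM in spinous nLRC (log2 fold change -2.42 ± 0.46 (SE), edgeR adjusted p = 0.00203). Fdps had 117, 106 and 60.6 TPM in spinous LRC, against 218, 302 and 149 TPM in spinous nLRC (log2 fold change -1.31 ± 0.37 (SE), edgeR adjusted p = 0.0232). Fdft1 had 49.2, 51.5 and 28.3 TPM in spinous LRC, against 149, 192 and 77.7 TPM in spinous nLRC (log2 fold change -1.30 ± 0.27 (SE), edgeR adjusted p = 0.00332). All 3 were lower in every spinous LRC library than in any spinous nLRC library. Ggps1, which leads to geranylgeranyl chains and not to sterols, did not pass the test (0.21 on the log2 scale).

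In the sterol segment 5 of the 10 genes fell and 2 rose. Sqle, the squalene epoxidase, had 45.5, 40.2 and 17.9 TPM in spinous LRC and 72.1, 108 and 41.4 TPM in spinous nLRC, ranges that overlap, and did not pass the test (log2 fold change -1.15 ± 0.41 (SE), edgeR adjusted p = 0.0671). Lss, which closes the sterol rings, had 14.7, 12.9 and 7.75 TPM in spinous LRC, against 43.3, 76.5 and 34.99 TPM in spinous nLRC (log2 fold change -2.20 ± 0.31 (SE), edgeR adjusted p = 0.000233). The lanosterol demethylase Cyp51 had 41.5, 41.9 and 20.3 TPM in spinous LRC, against 96.01, 227 and 95.8 TPM in spinous nLRC (log2 fold change -1.99 ± 0.38 (SE), edgeR adjusted p = 0.00205). The genes of ring closure and of the first demethylation thus both fell, with no overlap between groups. Msmo1, which removes the methyl groups at carbon 4, had 12.7, 11.8 and 5.15 TPM in spinous LRC, against 32.5, 115 and 48.9 TPM in spinous nLRC (log2 fold change -2.62 ± 0.46 (SE), edgeR adjusted p = 0.00107). Its partners in that step, Nsdhl (-1.70 ± 0.29, adjusted p = 0.000847 by edgeR) and Hsd17b7 (-1.32 ± 0.32, adjusted p = 0.00971 by edgeR), fell as well. Tm7sf2 and Ebp, a reductase and an isomerase of the ring, did not pass the test (-0.34 and -0.64 on the log2 scale).

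The genes of the last steps rose. Dhcr7, whose substrate 7-dehydrocholesterol is also the precursor of vitamin D in skin, had 81.5, 81.3 and 55.5 TPM in spinous LRC, against 51.4, 31.4 and 26.2 TPM in spinous nLRC (log2 fold change 0.99 ± 0.24 (SE), edgeR adjusted p = 0.0107). Sc5d, the desaturase that acts just before it, had 27.9, 32.5 and 18.9 TPM in spinous LRC, against 16.6, 10.01 and 7.33 TPM in spinous nLRC (log2 fold change 1.17 ± 0.31 (SE), edgeR adjusted p = 0.0162). Both were higher in every spinous LRC library than in any spinous nLRC library. Both calls were lost when library 2 or 3 labelled spinous nLRC or library 2 of spinous LRC was left out, and with limma on log2(TPM + 1), and that of Sc5d also without library 1 of spinous LRC. The calls of Hmgcs1, Fdps and Hsd17b7 were lost in 3 of 24 alternative fits each. All 3 were lost without library 2 labelled spinous nLRC, Hmgcs1 also without spinous LRC library 1, Fdps without spinous LRC library 2 or 3, and Hsd17b7 without spinous LRC library 3. Limma on log2(TPM + 1) lost Hmgcs1, Hsd17b7 and Srebf1.

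Among the control genes, Insig1 and Srebf1 fell while Srebf2 did not pass the test. Insig1 had 9.21, 13.8 and 5.72 TPM in spinous LRC, against 68.8, 156 and 52.5 TPM in spinous nLRC (log2 fold change -3.06 ± 0.53 (SE), edgeR adjusted p = 0.000943). Srebf1 had 198, 141 and 149 TPM in spinous LRC, against 445, 524 and 305 TPM in spinous nLRC (log2 fold change -1.35 ± 0.29 (SE), edgeR adjusted p = 0.00407). For Srebf2 the values were 208, 201 and 139 TPM in spinous LRC and 207, 219 and 136 TPM in spinous nLRC, with overlapping ranges (0.06 ± 0.28 on the log2 scale). Insig2, the second INSIG gene, had 20.8, 23.99 and 17.3 TPM in spinous LRC and 29.9, 34.9 and 35.8 TPM in spinous nLRC and did not pass the test (-0.78 ± 0.36). Scap did not pass it either (-0.42).

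The transport genes did not move as a block. Stard4, a small cytosolic carrier that moves cholesterol between membranes, had 34.6, 33.1 and 30.6 TPM in spinous LRC, against 15.7, 10.9 and 12.03 TPM in spinous nLRC (log2 fold change 1.27 ± 0.19 (SE), edgeR adjusted p = 0.000348). Abca1, which exports cholesterol to lipid-poor apolipoproteins and is a target of the oxysterol receptor LXR, had 50.7, 49.6 and 72.5 TPM in spinous LRC, against 202, 329 and 286 TPM in spinous nLRC (log2 fold change -2.01 ± 0.41 (SE), edgeR adjusted p = 0.00293). The 2 groups were apart in both genes, in opposite directions. Abcg1, which exports cholesterol to mature lipoproteins and is also an LXR target, had 70.9, 50.7 and 65.98 TPM in spinous LRC and 38.2, 17.97 and 32.3 TPM in spinous nLRC, and missed the threshold (log2 fold change 1.29 ± 0.51 (SE), edgeR adjusted p = 0.104). The lysosomal pair Npc1 and Npc2, which release cholesterol from the lysosome, did not pass the test. Npc2 had 33.6, 41.3 and 36.1 TPM in spinous LRC and 40.8, 46.2 and 40.9 TPM in spinous nLRC.

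**Figure D2:**
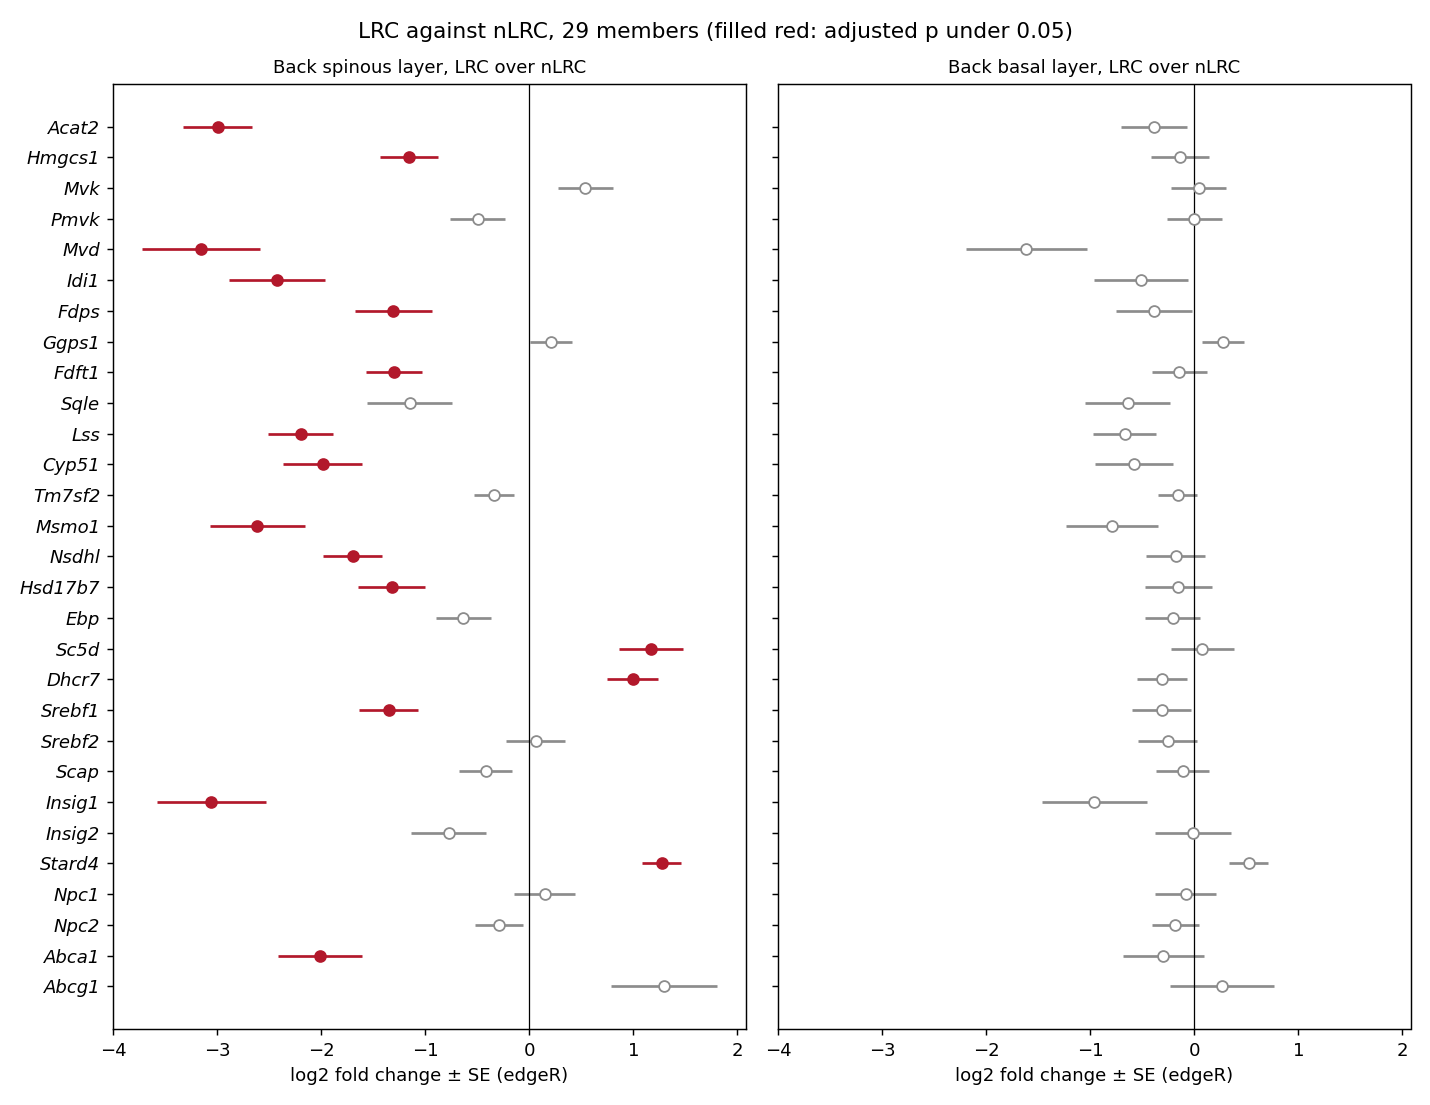
Log2 fold change ± SE of LRC over nLRC for the 29 genes in the spinous layer (left) and basal layer (right) of back skin, from edgeR; filled red points have an adjusted p under 0.05. In the spinous layer 14 genes lie below 0 and 3 above it in red, and in the basal layer no gene is red.

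Neighbouring pathways moved beside the 29 genes in this comparison. All 4 further enzymes of cholesterol and acetoacetate use fell, among them Lbr, a second sterol ring reductase that also anchors chromatin (-0.69 ± 0.15 on the log2 scale), and Aacs, which activates acetoacetate (-1.19 ± 0.33). Of 11 fatty acid synthesis genes under SREBP-1, 6 fell, with Acss2 (-3.86 ± 0.43), Elovl6 (-3.76 ± 0.62) and Acacb (-2.74 ± 0.44) changing most clearly. Of 8 genes of the isoprenoid side branches 3 fell, led by Pdss1, which makes the tail of coenzyme Q (-3.40 ± 0.42). Of 12 genes of sterol uptake, storage and LXR signalling 3 fell, Scarb1, a receptor for high-density lipoprotein (-2.27 ± 0.52), and Nr1h3, which encodes LXR alpha (-2.18 ± 0.66), among them, while Mylip, an LXR-induced ubiquitin ligase, rose (1.42 ± 0.25). Of the 12 sebocyte markers, 10 fell and none rose, with a median log2 fold change of -5.47.

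In the basal layer no member passed the test between LRC and nLRC, where 0.235% of all 16574 genes passed. An unadjusted p under 0.05 was reached by 802 genes in all. Of the 29 genes 24 had a negative and 5 a positive log2 fold change, with a median of -0.18, beside -0.01 over all genes. Mvd had 3.48, 5.41 and 1.05 TPM in basal LRC and 10.4, 10.6 and 7.75 TPM in basal nLRC (log2 fold change -1.61 ± 0.58 (SE), edgeR adjusted p = 0.563). Stard4 had 12.4, 11.97 and 16.3 TPM in basal LRC and 9.90, 8.58 and 8.95 TPM in basal nLRC (log2 fold change 0.52 ± 0.19 (SE), edgeR adjusted p = 0.588). Both genes stood apart between the groups in TPM, but neither passed the test after adjustment over all 16574 genes. Lss and Insig1 were lower and Ggps1 was higher in every basal LRC library than in any basal nLRC library, and the other 24 genes overlapped. How many of all genes stood apart in this way was not counted, here or in the other comparisons. The summed sebocyte markers overlapped between these groups. They were 315, 364 and 386 TPM in basal LRC and 377, 807 and 729.8 TPM in basal nLRC, and 1 of the 12, Mgst1, fell (-3.54 ± 0.66, edgeR adjusted p = 0.036). Scd1 and Acsbg1 made up most of that sum. Pparg averaged 0.657 TPM in basal LRC and 10.1 TPM in basal nLRC. Pparg, Mgst1, Soat1, Far2, Scd1, Elovl3, Mc5r and Cidea were lower in every basal LRC library than in any basal nLRC library. Only Mgst1 of these passed the test, and the share of all genes apart in this way was not counted. Acsbg1, Awat1, Awat2 and Dgat2 overlapped. The part of sebaceous cells in this comparison was not tested.

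The LRC effect itself was compared between the layers as a difference of log2 fold changes, spinous minus basal. Its median over the 29 genes was -0.76, and it differed for 1 of them, Acat2 (-2.61 ± 0.45 (SE), edgeR adjusted p = 0.0184), beside 0.392% of all genes. With the replicate number as a block, which pairs these libraries, 7 genes passed, 1 higher and 6 lower. The call of Acat2 was lost without any 1 of 7 libraries, namely basal LRC 2 and 3, basal nLRC 1 and 3, spinous LRC 1 and 2, and spinous nLRC 2. Without library 2 of the back bulge, which is outside the comparison but shares the estimate of spread, 4 genes passed.

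Among label-retaining cells, which do not involve the libraries labelled spinous nLRC, the spinous layer differed from the basal layer in 4 of the 29 genes, all higher in spinous LRC, beside 3.2% of all genes that were higher and 2.85% that were lower. Positive log2 fold changes were found for 25 of the 29, with a median of 0.66, beside 0.01 over all genes. Sqle had 45.5, 40.2 and 17.9 TPM in spinous LRC, against 9.26, 7.01 and 5.13 TPM in basal LRC (log2 fold change 2.06 ± 0.42 (SE), edgeR adjusted p = 0.00738). The mevalonate kinase gene Mvk had 127, 109 and 98.4 TPM in spinous LRC, against 39.4, 34.03 and 42.9 TPM in basal LRC (log2 fold change 1.41 ± 0.27 (SE), edgeR adjusted p = 0.00442). An early and a middle step of the pathway were thus both higher. Stard4 had 34.6, 33.1 and 30.6 TPM in spinous LRC, against 12.4, 11.97 and 16.3 TPM in basal LRC (log2 fold change 1.27 ± 0.19 (SE), edgeR adjusted p = 0.00109). Dhcr7 had 81.5, 81.3 and 55.5 TPM in spinous LRC, against 32.8, 41.2 and 32.00 TPM in basal LRC (log2 fold change 1.01 ± 0.24 (SE), edgeR adjusted p = 0.0193). In all 4 genes each spinous LRC library lay above each basal LRC library. The call of Dhcr7 was lost without basal LRC library 1 or 3 and without spinous LRC library 1 or 2.

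With the replicate block, 11 genes passed in this comparison, all higher in spinous LRC. Without library 2 of the back bulge 9 passed, and with limma on log2(TPM + 1) 2 passed, Mvk and Sqle. Hmgcs1 had 200.3, 228 and 226 TPM in spinous LRC and 154, 201 and 223 TPM in basal LRC, and did not pass (0.12 ± 0.28). The 12 sebocyte markers held 755, 757 and 715 TPM in spinous LRC, against 315, 364 and 386 TPM in basal LRC, and 1 of them, Dgat2, a triglyceride synthase also expressed in keratinocytes, rose. Pparg was near 0 in both, at 0.487 TPM in spinous LRC and 0.657 TPM in basal LRC. Of the fatty acid genes Acly, which makes cytosolic acetyl-CoA (1.09 ± 0.21 on the log2 scale), and the malic enzyme Me1 (2.36 ± 0.45) rose, and Aacs rose too (2.05 ± 0.34).

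From basal LRC to the granular layer, the uppermost living layer, most of the pathway was higher. This comparison was added after the values had been seen. Of the 29 genes 17 were higher in the granular layer and none lower, beside 8.86% of all genes that were higher and 7.34% that were lower, with a median of 1.13 against -0.01 over all genes. Sqle had 9.26, 7.01 and 5.13 TPM in basal LRC, 45.5, 40.2 and 17.9 TPM in spinous LRC and 76.95, 72.6 and 37.6 TPM in the granular layer (granular over basal LRC, log2 fold change 2.99 ± 0.44 (SE), edgeR adjusted p = 0.000157). Cyp51 had 19.7, 13.1 and 10.7 TPM in basal LRC, 41.5, 41.9 and 20.3 TPM in spinous LRC and 66.6, 82.7 and 41.5 TPM in the granular layer (log2 fold change 2.04 ± 0.38 (SE), edgeR adjusted p = 0.00129). Each granular library was above each basal LRC library in both genes, while granular and spinous LRC libraries overlapped. Stard4 had 12.4, 11.97 and 16.3 TPM in basal LRC, 34.6, 33.1 and 30.6 TPM in spinous LRC and 37.8, 39.2 and 49.7 TPM in the granular layer (log2 fold change 1.74 ± 0.19 (SE), edgeR adjusted p = 1.52e-05), with no overlap at either step. Dhcr7 had 32.8, 41.2 and 32.00 TPM in basal LRC, 81.5, 81.3 and 55.5 TPM in spinous LRC and 108, 93.9 and 59.7 TPM in the granular layer (log2 fold change 1.32 ± 0.25 (SE), edgeR adjusted p = 0.00121).

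In the isoprenoid segment Fdps had 182, 168 and 117 TPM in the granular layer, against 48.6, 48.5 and 38.3 TPM in basal LRC (log2 fold change 1.80 ± 0.38 (SE), edgeR adjusted p = 0.00302). Fdft1 had 80.9, 67.2 and 43.5 TPM in the granular layer, against 32.5, 26.04 and 25.1 TPM in basal LRC (log2 fold change 1.13 ± 0.27 (SE), edgeR adjusted p = 0.00707). Both groups of libraries were apart in these genes. Lss had 17.02, 20.9 and 10.5 TPM in the granular layer, against 6.28, 6.88 and 4.79 TPM in basal LRC (log2 fold change 1.49 ± 0.31 (SE), edgeR adjusted p = 0.00286). Msmo1 had 22.5, 30.8 and 10.6 TPM in the granular layer, against 5.45, 6.99 and 3.99 TPM in basal LRC (log2 fold change 2.08 ± 0.45 (SE), edgeR adjusted p = 0.00406). Mvd (3.17), Mvk (1.66), Idi1 (1.59), Hsd17b7 (1.36), Pmvk (1.18) and Acat2 (1.05) rose as well on the log2 scale. Hmgcs1 had 217, 237 and 228 TPM in the granular layer and 154, 201 and 223 TPM in basal LRC, and did not pass (0.26 ± 0.28).

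Both INSIG genes and Srebf2 were higher in the granular layer. Insig2, which, unlike Insig1, is not known as an SREBP target in liver, had 54.1, 71.5 and 58.3 TPM in the granular layer, against 20.8, 23.99 and 17.3 TPM in spinous LRC and 22.03, 15.2 and 17.2 TPM in basal LRC (log2 fold change 1.79 ± 0.37 (SE), edgeR adjusted p = 0.00277 over basal LRC). Insig1 had 25.8, 28.1 and 6.34 TPM in the granular layer, against 7.26, 7.73 and 5.39 TPM in basal LRC (log2 fold change 1.59 ± 0.51 (SE), edgeR adjusted p = 0.0421), and granular library 3 lay within the range of basal LRC. Srebf2 had 201, 208 and 166 TPM in the granular layer, against 121, 116 and 83.7 TPM in basal LRC (log2 fold change 0.92 ± 0.29 (SE), edgeR adjusted p = 0.0363). The calls of Srebf2 and Insig1 were lost in 12 and 9 of 24 alternative fits, and those of Idi1 and Acat2 in 6 each, among them the fits without any 1 basal LRC library and without granular library 1 or 2. Srebf1 had 210.0, 148 and 133 TPM in the granular layer and 163, 122 and 103 TPM in basal LRC, and did not pass the test (0.34 ± 0.28).

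None of the efflux and lysosomal genes passed the test. Abca1 had 62.8, 85.8 and 99.8 TPM in the granular layer and 74.5, 59.1 and 87.6 TPM in basal LRC (0.14 ± 0.39 on the log2 scale). Abcg1 had 47.97, 48.98 and 59.3 TPM in the granular layer and 107, 66.8 and 62.5 TPM in basal LRC (-0.58 ± 0.50), and Npc2 had 35.7, 35.7 and 44.00 TPM in the granular layer and 28.8, 41.5 and 40.1 TPM in basal LRC (0.07 ± 0.23). Abcg1 was lower in each granular library than in any basal LRC library, and the other 2 genes overlapped. Of the fatty acid genes 8 of 11 rose, Me1 (3.21 ± 0.47) and Elovl6 (2.88 ± 0.60) among them, and none of 8 isoprenoid branch genes passed. Of the 12 sebocyte markers 9 rose, summing to 1288, 1467 and 992 TPM in the granular layer, against 315, 364 and 386 TPM in basal LRC, and Pparg averaged 6.94 TPM in the granular layer. Immune markers were higher there too, at 139.6, 551 and 146 TPM summed in the granular layer, against 44.7, 68.1 and 67.4 TPM in basal LRC, with 2 of the 6 past the test. The part of sebaceous and immune cells in this result was not tested. With limma on log2(TPM + 1) 9 of the 29 genes passed, all higher.

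**Figure D3:**
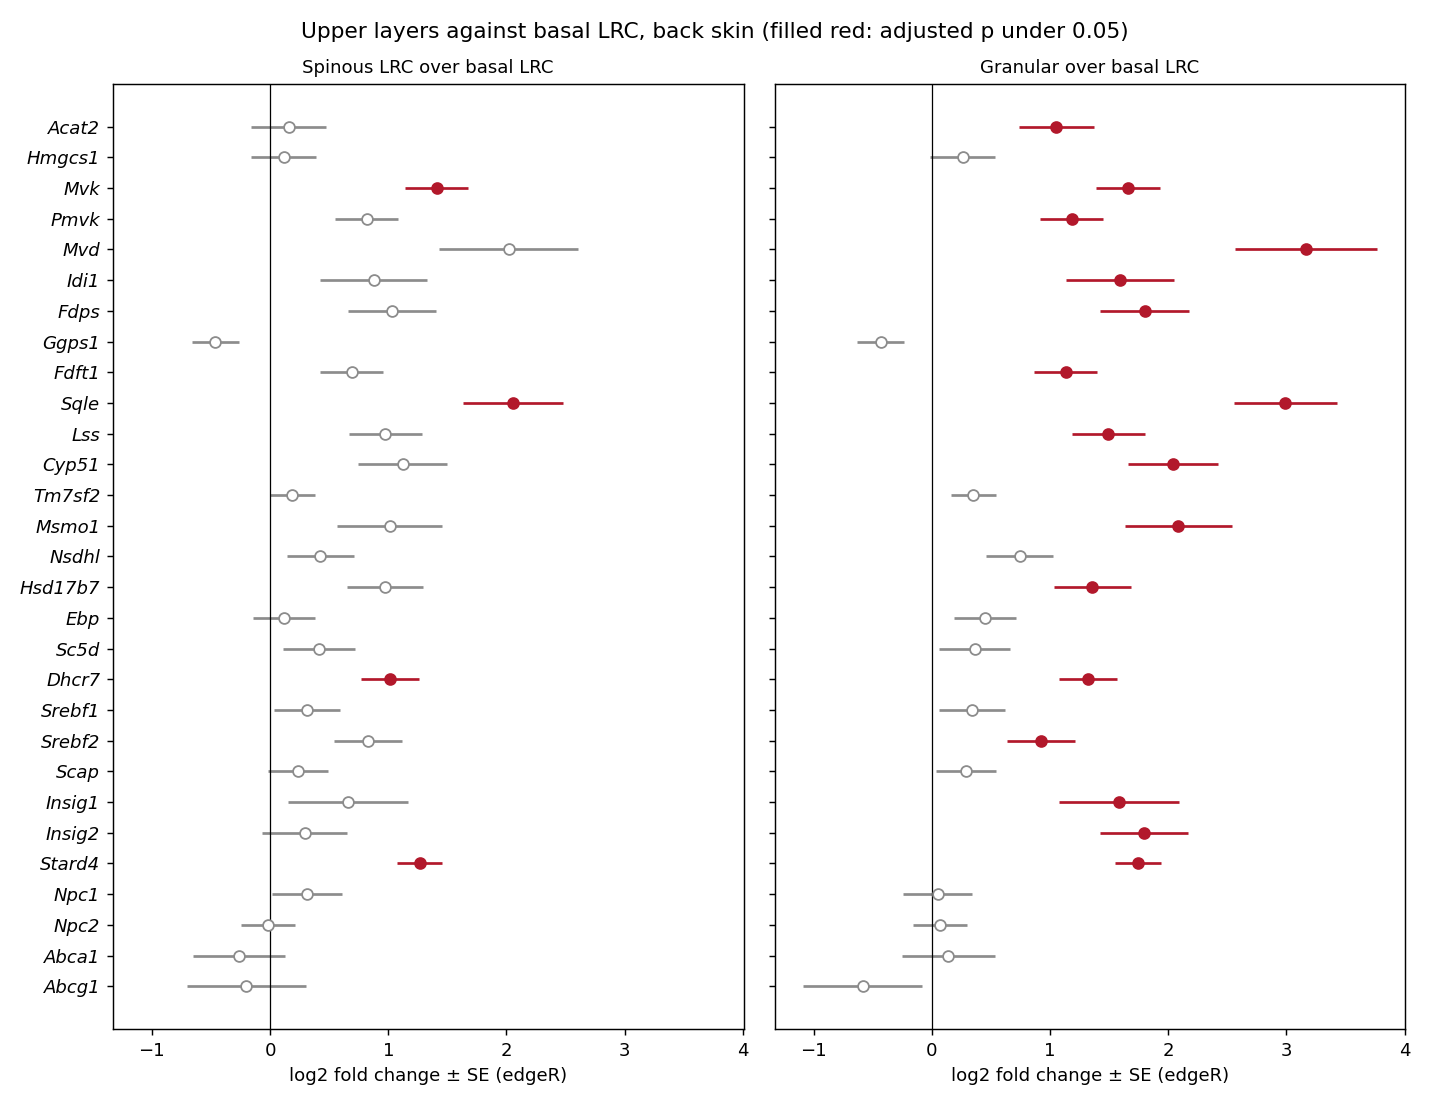
Log2 fold change ± SE over basal LRC of back skin for the 29 genes, in spinous LRC (left) and in the granular layer (right), from edgeR; filled red points have an adjusted p under 0.05. Sqle, Mvk, Stard4 and Dhcr7 are red in both panels, and 17 genes are red in the granular panel, all to the right of 0.

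Between the granular layer and spinous LRC no member passed the test, beside 0.977% of all genes, which is 162 genes. An unadjusted p under 0.05 was reached by 1564 genes in all. Positive log2 fold changes were found for 26 of the 29, with a median of 0.37. The nearest to the threshold was Insig2 (log2 fold change 1.501 ± 0.37 (SE), edgeR adjusted p = 0.0641), whose granular libraries lay above all spinous LRC libraries. With the replicate block 2 genes passed, both higher. DESeq2 and the fit without a low-count filter gave 1 each.

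The same steps taken through the libraries labelled spinous nLRC gave larger and partly opposite differences. Relative to basal nLRC, 16 of the 29 genes were higher in spinous nLRC and none lower, beside 2.75% of all genes that were higher and 1.42% that were lower, with a median of 1.31. Mvd (3.56), Msmo1 (2.84), Idi1 (2.79), Acat2 (2.77) and Insig1 (2.75) rose most on the log2 scale. Acat2 had 218, 341 and 141 TPM in spinous nLRC, against 24.01, 38.8 and 31.4 TPM in basal nLRC (log2 fold change 2.77 ± 0.33 (SE), edgeR adjusted p = 0.000228). Lss had 43.3, 76.5 and 34.99 TPM in spinous nLRC, against 8.04, 9.70 and 9.14 TPM in basal nLRC (log2 fold change 2.50 ± 0.32 (SE), edgeR adjusted p = 0.00034). Fdft1 (1.85), Nsdhl (1.95), Cyp51 (2.53), Hsd17b7 (2.14), Sqle (2.57), Fdps (1.95), Pmvk (1.31), Srebf1 (1.35), Hmgcs1 (1.14) and Abca1 (1.45) also rose. Stard4 and Dhcr7, which rose among label-retaining cells, did not pass here (0.52 ± 0.19 and -0.29 ± 0.24). Of the 12 sebocyte markers 10 rose in this comparison, with a median of 3.63, and 2 of 6 spinous markers did.

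In the same step Hmgcs1 had 409, 616 and 329.7 TPM in spinous nLRC, against 150.1, 226 and 232 TPM in basal nLRC. Fdps had 218, 302 and 149 TPM in spinous nLRC, against 61.5, 65.2 and 46.4 TPM in basal nLRC. Fdft1 had 149, 192 and 77.7 TPM in spinous nLRC, against 34.5, 35.1 and 28.7 TPM in basal nLRC. In none of these 3 genes did the groups overlap. Sqle had 72.1, 108 and 41.4 TPM in spinous nLRC, against 11.9, 14.6 and 6.81 TPM in basal nLRC. Cyp51 had 96.01, 227 and 95.8 TPM in spinous nLRC, against 19.3, 31.6 and 18.2 TPM in basal nLRC, and Msmo1 had 32.5, 115 and 48.9 TPM in spinous nLRC, against 8.77, 12.1 and 6.99 TPM in basal nLRC. The sterol genes were apart as well. Dhcr7 overlapped, with 51.4, 31.4 and 26.2 TPM in spinous nLRC and 42.7, 47.2 and 34.2 TPM in basal nLRC.

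Among the control genes Insig1 had 68.8, 156 and 52.5 TPM in spinous nLRC, against 9.03, 15.9 and 12.9 TPM in basal nLRC. Srebf1 had 445, 524 and 305 TPM in spinous nLRC, against 136, 177 and 156 TPM in basal nLRC. Both were apart and both rose. Srebf2 had 207, 219 and 136 TPM in spinous nLRC and 111, 145 and 116 TPM in basal nLRC, and Insig2 had 29.9, 34.9 and 35.8 TPM in spinous nLRC and 18.2, 15.2 and 19.3 TPM in basal nLRC. Neither passed the test (0.51 ± 0.28 and 1.05 ± 0.36). Of the efflux genes, Abca1 had 202, 329 and 286 TPM in spinous nLRC, against 68.99, 89.9 and 125 TPM in basal nLRC (log2 fold change 1.45 ± 0.40 (SE), edgeR adjusted p = 0.05), a call lost in 16 of 24 alternative fits. The calls of Hmgcs1 and Srebf1 were lost in 5 of 24, among them the fits without any 1 basal nLRC library, and that of Pmvk in 3. Insig1 lost its call without basal nLRC library 1. Abcg1 had 38.2, 17.97 and 32.3 TPM in spinous nLRC and 72.5, 61.1 and 60.3 TPM in basal nLRC, and Npc2 had 40.8, 46.2 and 40.9 TPM in spinous nLRC and 36.8, 43.00 and 43.4 TPM in basal nLRC, without passing.

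Relative to spinous nLRC, the granular layer had 11 of the 29 genes lower and 3 higher, beside 7.51% and 6.67% of all genes. The 3 higher genes were Stard4 (log2 fold change 1.75 ± 0.19 (SE), edgeR adjusted p = 6.02e-05), Dhcr7 (1.30 ± 0.25) and Sc5d (1.12 ± 0.31). The lower genes were Insig1 (-2.13), Acat2 (-2.10), Mvd (-2.01), Idi1 (-1.71), Lss (-1.68), Abca1 (-1.61), Msmo1 (-1.54), Nsdhl (-1.38), Srebf1 (-1.33), Hmgcs1 (-1.01) and Fdft1 (-0.86) on the log2 scale. These comparisons share the spinous nLRC libraries, so their values are not independent of each other. The count of 14 fell to 6 without library 2 labelled spinous nLRC, to 8 without granular library 1 and to 9 without granular library 3, and 7 passed with limma on log2(TPM + 1). Fdft1 lost its call in 11 of 24 alternative fits, and Hmgcs1, Msmo1 and Sc5d in 5 each.

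**Figure D4:**
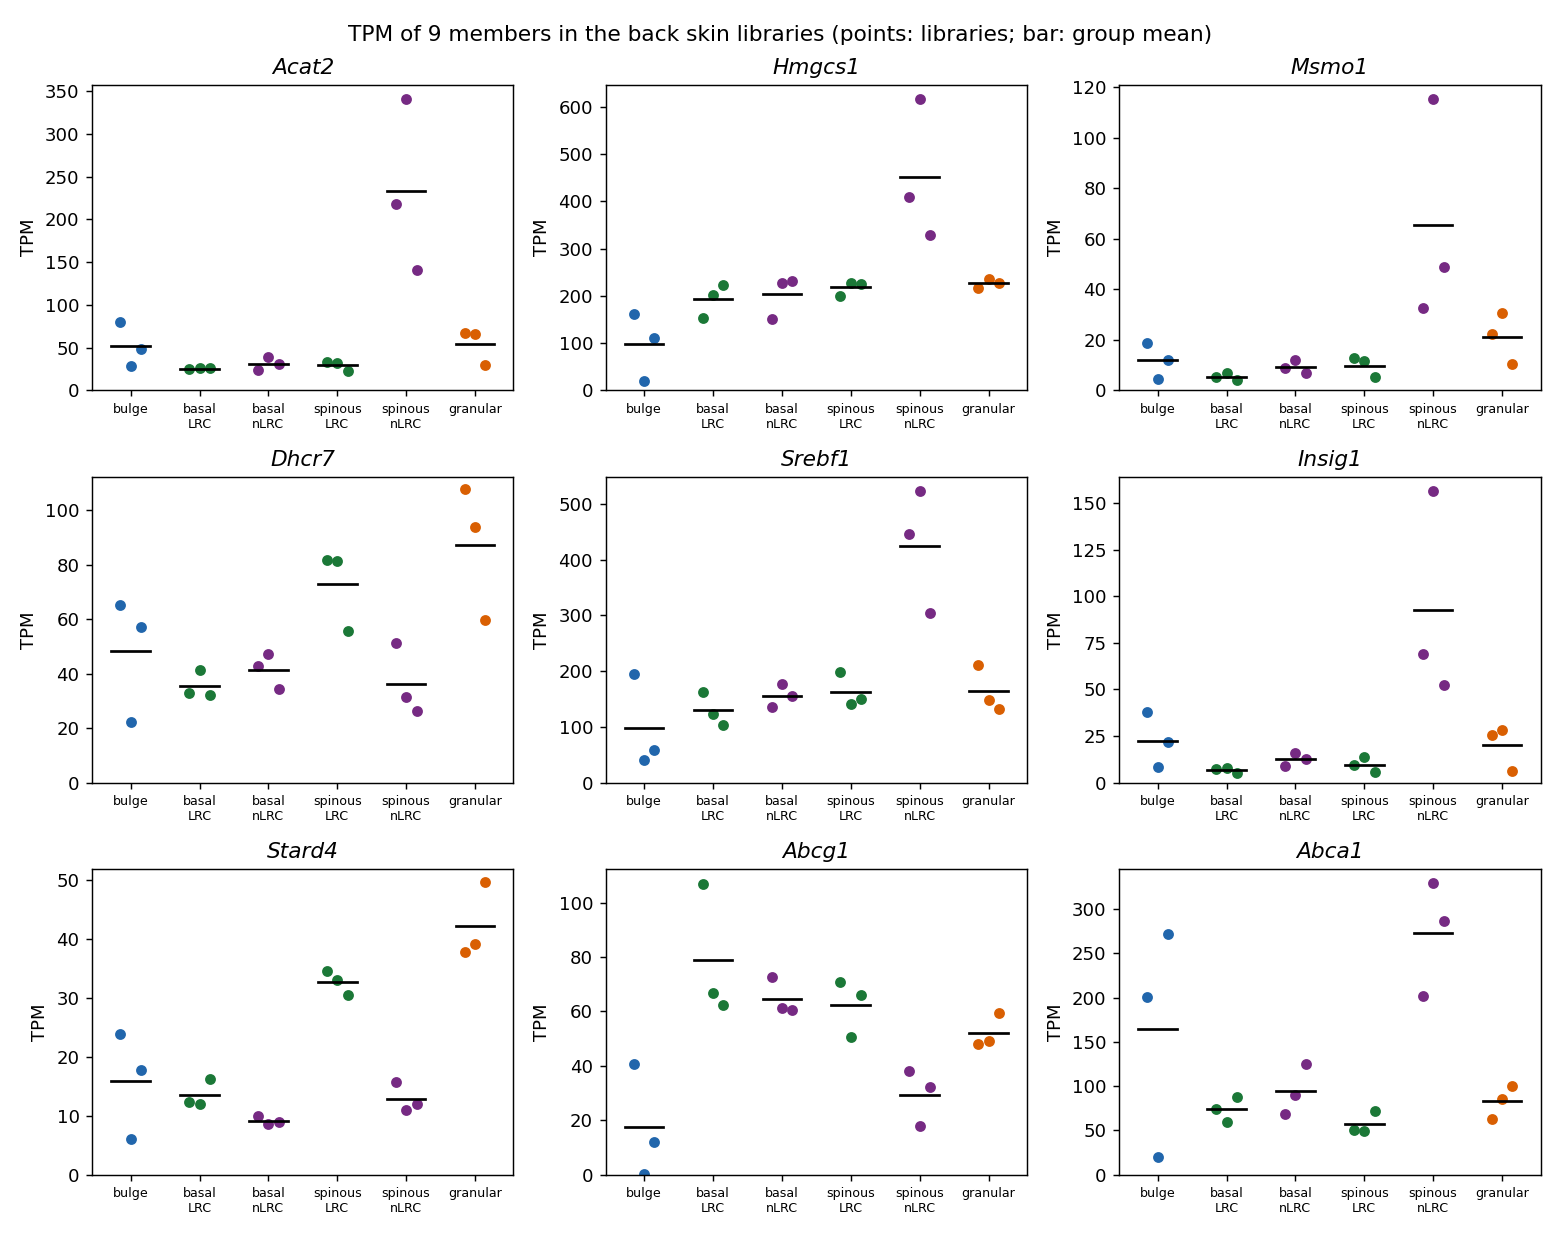
TPM of 9 of the genes in the 18 back skin libraries on linear axes; points are libraries and bars are group means. Acat2, Hmgcs1, Msmo1, Srebf1, Insig1 and Abca1 have their highest group mean in the libraries labelled spinous nLRC, Dhcr7 and Stard4 in the granular layer, and Abcg1 in basal LRC.

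In the back skin bulge, the niche of hair follicle stem cells, 9 of the 29 genes were higher and 2 lower than in the basal layer (LRC and nLRC averaged), beside 15.7% of all genes that were higher and 10.6% that were lower. Abcg1 had 40.6, 0.42 and 12 TPM in the bulge, against 107, 66.8 and 62.5 TPM in basal LRC and 72.5, 61.1 and 60.3 TPM in basal nLRC (log2 fold change -2.46 ± 0.49 (SE), edgeR adjusted p = 0.00137). Hmgcs1 had 163, 19.8 and 111 TPM in the bulge, against 154, 201 and 223 TPM in basal LRC and 150.1, 226 and 232 TPM in basal nLRC (log2 fold change -0.99 ± 0.25 (SE), edgeR adjusted p = 0.00738). Both fell, and in Hmgcs1 bulge library 1 reached the basal range. Higher in the bulge were Mvd (1.89), Insig1 (1.47), Idi1 (1.33), Acat2 (1.25), Sqle (1.20), Fdps (0.90), Lss (0.86), Stard4 (0.76) and Dhcr7 (0.59) on the log2 scale. Acat2 had 80.3, 28.1 and 47.9 TPM in the bulge, against 24.7, 25.8 and 26.2 TPM in basal LRC and 24.01, 38.8 and 31.4 TPM in basal nLRC (log2 fold change 1.25 ± 0.26 (SE), edgeR adjusted p = 0.00197). Stard4 had 23.9, 5.99 and 17.8 TPM in the bulge, against 12.4, 11.97 and 16.3 TPM in basal LRC and 9.90, 8.58 and 8.95 TPM in basal nLRC (log2 fold change 0.76 ± 0.16 (SE), edgeR adjusted p = 0.00216). In TPM, libraries 1 and 3 of the bulge were above every basal library in both genes, and library 2 was not. The test used counts scaled by TMM, where the factor of 0.5 raises library 2. Its TPM therefore do not show its place in the test. The bulge call of Stard4 was lost against basal LRC alone.

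Bulge library 2 had the lowest TPM of the 3 bulge libraries for every gene but Fdps, and its values stand second in what follows. Srebf1 had 194, 39.9 and 58.97 TPM in the bulge, Srebf2 195, 82.2 and 101 TPM, Insig1 37.9, 8.23 and 21.6 TPM and Insig2 52.7, 3.71 and 29.9 TPM. Abca1 had 200.4, 20.4 and 272 TPM and Npc2 48.6, 12.8 and 65.1 TPM. The bulge libraries thus differed several-fold among themselves in these genes. Fdps had 93.7, 48.4 and 44.96 TPM, Fdft1 55.6, 13.8 and 47.8 TPM, Sqle 37.5, 8.97 and 10.8 TPM and Lss 23.1, 3.39 and 11.6 TPM. Msmo1 had 18.9, 4.65 and 12.1 TPM, Cyp51 41.6, 6.02 and 25.5 TPM and Dhcr7 65.3, 22.2 and 57.1 TPM. Without library 2, 6 genes were higher and 4 lower than in the basal layer, and Idi1, Insig1, Sqle, Fdps and Dhcr7 no longer passed. Without library 1, Mvd, Sqle and Lss no longer passed. The calls of Fdps and Dhcr7 were lost in 17 and 19 of 26 alternative fits.

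Other cell types are visible in the bulge libraries. Their 5 endothelial markers summed to 346, 9.15 and 124 TPM, against 0.09, 0.5 and 0.3 TPM in basal LRC, their 5 melanocyte markers to 129, 6.77 and 344 TPM, against 2.82, 2.54 and 6.51 TPM in basal LRC, and their 12 sebocyte markers to 1303, 44.6 and 610.4 TPM, with 7 of the 12 higher than in the basal layer. The part of these cells in the bulge results was not tested. Set against basal nLRC alone, 4 members passed, 2 in each direction, and with limma on log2(TPM + 1) 2 passed, both lower. The clearest neighbours were the fatty acid desaturases Fads1 (4.53 ± 0.52) and Fads2 (5.36 ± 0.91), the elongase Elovl5 (1.77 ± 0.22) and Scarb1 (3.80 ± 0.40), all higher in the bulge on the log2 scale.

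The tail bulge differed from the tail basal layer in 10 of the 29 genes, 4 higher and 6 lower, beside 14.2% and 10.4% of all 14993 genes tested in tail. Abcg1 had 2.35, 0.8 and 3.11 TPM in the bulge, against 7.58, 7.93 and 5.47 TPM in basal LRC and 7.13, 10.8 and 8.16 TPM in basal nLRC (log2 fold change -1.98 ± 0.22 (SE), edgeR adjusted p = 0.000128). Hmgcs1 had 30.9, 33.7 and 31.4 TPM in the bulge, against 100.4, 103 and 99.2 TPM in basal LRC and 89.6, 96.3 and 115 TPM in basal nLRC (log2 fold change -1.40 ± 0.17 (SE), edgeR adjusted p = 0.000204). All 3 bulge libraries were below all 6 basal libraries in both genes, which also fell in the back bulge. Ebp (-1.01 ± 0.24), Srebf1 (-0.65 ± 0.12), Hsd17b7 (-0.57 ± 0.17) and Scap (-0.32 ± 0.10) were lower too. The calls of Hsd17b7 and Scap were lost in 9 and 10 of 17 alternative fits, and that of Ebp without bulge library 2 or 3.

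Higher in the tail bulge were Stard4, with 4.32, 4.74 and 2.77 TPM, against 3.37, 3.34 and 2.76 TPM in basal LRC and 0.68, 0.93 and 0.94 TPM in basal nLRC (log2 fold change 1.48 ± 0.26 (SE), edgeR adjusted p = 0.00231), and Ggps1, with 17.1, 12.6 and 22.6 TPM, against 10.9, 11.2 and 5.85 TPM in basal LRC and 7.85, 9.99 and 9.49 TPM in basal nLRC (log2 fold change 1.10 ± 0.16 (SE), edgeR adjusted p = 0.000591). Dhcr7 (0.88 ± 0.17) and Npc1 (0.77 ± 0.13) rose as well. Set against basal LRC alone, Stard4, Npc1 and Hsd17b7 no longer passed. All 5 endothelial markers rose in the tail bulge, summing to 29.7, 6.72 and 46.5 TPM in the bulge, against 0.15, 0.2 and 0.25 TPM in basal LRC and 0.07, 0.16 and 0.26 TPM in basal nLRC, and the part of these cells in the result was not tested. In tail the sebocyte markers summed to 50.97, 22.9 and 38.5 TPM in the bulge and 116, 103 and 112 TPM in basal LRC. In tail basal nLRC they summed to 207.1, 141.73 and 142.28 TPM. The part of sebaceous cells was not tested either. The desaturases Fads1 (4.77 ± 0.16) and Fads2 (4.93 ± 0.73) and Elovl5 (2.19 ± 0.14) were higher in the bulge here too, as was Scarb1 (1.55 ± 0.27).

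In the tail basal layer 2 of the 29 genes were higher in LRC than in nLRC and none lower, beside 3.12% of all genes that were higher and 1.48% that were lower. Stard4 had 3.37, 3.34 and 2.76 TPM in LRC, against 0.68, 0.93 and 0.94 TPM in nLRC (log2 fold change 1.44 ± 0.33 (SE), edgeR adjusted p = 0.035). Npc1 had 5.84, 7.81 and 6.08 TPM in LRC, against 2.74, 3.93 and 3.84 TPM in nLRC (log2 fold change 0.65 ± 0.15 (SE), edgeR adjusted p = 0.0407). Neither overlapped between the groups, and neither gene was called once any 1 of the 6 basal libraries was left out. Bulge markers also differed between these groups, summing to 3100, 1615 and 2641 TPM in LRC, against 445, 333 and 609 TPM in nLRC, most of it Krt15, and 4 of the 6 markers rose in tail LRC. Sox9 averaged 61.5 TPM in tail LRC, against 8.11 TPM in tail nLRC, and Nfatc1 23.03 TPM in tail LRC, against 6.95 TPM in tail nLRC. Lhx2 averaged 1.15 TPM in tail LRC, against 0.087 TPM in tail nLRC, Lgr5 0.323 TPM in tail LRC, against 0.017 TPM in tail nLRC, and Cd34 0.08 TPM in tail LRC and 0.01 TPM in tail nLRC. The part of bulge cells in the tail LRC result was not tested. The 10 mitosis markers summed to 532, 246 and 361 TPM in tail LRC, against 137, 145 and 187 TPM in tail nLRC. All 10 had the higher mean in tail LRC, although LRC is named the slow-cycling fraction, and 3 passed the test. The reason was not tested. Elovl6 fell (-1.42 ± 0.25), as did Vldlr, a lipoprotein receptor (-0.88 ± 0.21).

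In palate and tongue, with n = 2 libraries per group, no member passed between LRC and nLRC, where 0% and 0.0067% of 14923 genes passed by edgeR, none and 1 gene. An unadjusted p under 0.05 was reached by 1082 genes in palate and 696 in tongue. In palate 23 of the 29 log2 fold changes were negative, with a median of -0.44, and in tongue 10 were negative, with a median of 0.13. Sqle had 3.77 and 2.28 TPM in palate LRC and 7.44 and 3.62 TPM in palate nLRC (log2 fold change -1.12 ± 0.30 (SE), edgeR adjusted p = 0.64). Palate nLRC library 2 had a TMM factor of 0.666, the lowest of the oral libraries. Abcg1 had 1.66 and 0.86 TPM in palate LRC and 0.56 and 0.17 TPM in palate nLRC, and 5.08 and 3.17 TPM in tongue LRC, against 1.87 and 1.54 TPM in tongue nLRC, without passing in either tissue.

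The oral basal layer (palate and tongue averaged) differed from the tail basal layer in 20 of the 29 genes, beside 32.9% of all 17103 genes tested. Of the 20, 17 were lower and 3 higher in the oral libraries. Tissue, the length of doxycycline treatment and any difference between the experiments cannot be told apart here. Abcg1 had the largest difference (log2 fold change -2.68 ± 0.19 (SE), edgeR adjusted p = 8.38e-09), at 1.66 and 0.86 TPM in palate LRC and 5.08 and 3.17 TPM in tongue LRC, against 7.58, 7.93 and 5.47 TPM in tail LRC. Acat2 had 4.10 and 2.10 TPM in palate LRC and 2.26 and 1.92 TPM in tongue LRC, against 14.3, 8.53 and 10.3 TPM in tail LRC (log2 fold change -1.30 ± 0.16 (SE), edgeR adjusted p = 6.12e-06). In nLRC it had 4.94 and 4.40 TPM in palate and 2.85 and 3.29 TPM in tongue, against 11.9, 7.91 and 8.83 TPM in tail, so that no oral library reached the tail range. Idi1 (-1.38), Abca1 (-1.20), Hsd17b7 (-1.09), Srebf1 (-1.07), Fdps (-0.72), Npc2 (-0.68), Mvk (-0.65) and Srebf2 (-0.56) fell as well on the log2 scale. Dhcr7 (1.02 ± 0.14), Stard4 (0.93 ± 0.16) and Sc5d (0.55 ± 0.13) were the 3 higher genes. Of 11 sebocyte markers tested 7 were lower in the oral libraries, and all 6 spinous markers were. Fibroblast markers, nearly all Dcn, summed to 53.8 and 28.2 TPM in palate LRC, 84.2 and 60.6 TPM in palate nLRC, 76.95 and 26.4 TPM in tongue LRC and 153 and 122 TPM in tongue nLRC, against 0.21, 0.33 and 0.33 TPM in tail LRC and 1.57, 6.89 and 3.43 TPM in tail nLRC. The other markers of that list, Col1a1, Col1a2, Col3a1, Lum and Pdgfra, each averaged 0.115 TPM or less in every oral group. The part of other cell types in this result was not tested. Oral libraries had more Fads1 (3.89 ± 0.21), Fads2 (6.30 ± 0.42) and Elovl5 (1.88 ± 0.14).

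Between the tail and back basal layers 9 of the 29 genes were higher and 11 lower in tail, beside 58.3% of all genes in either direction, a background so high that the count says little about these genes. The 2 sets of tables were made differently, and with limma on log2(TPM + 1) 2 were higher and 24 lower, so directions for single genes depend on the scaling. Tm7sf2 (-3.11 ± 0.20), Npc1 (-1.99 ± 0.14), Abcg1 (-1.60 ± 0.19), Stard4 (-1.27 ± 0.17) and Dhcr7 (-1.11 ± 0.14) were lower in tail under each alternative. Tm7sf2 shares exonic bases with Vps51 on the same strand. Idi1 (2.62 ± 0.24) and Msmo1 (1.70 ± 0.21) were higher in tail, Msmo1 without passing under limma on log2(TPM + 1). Scap (-0.64), Sc5d (-0.77) and Pmvk (1.19) also passed. Sqle (1.07) turned to -0.25 with limma on log2(TPM + 1), and Ggps1 (-0.78) to 0.28 with limma on TPM rescaled over protein-coding genes.

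**Figure D5:**
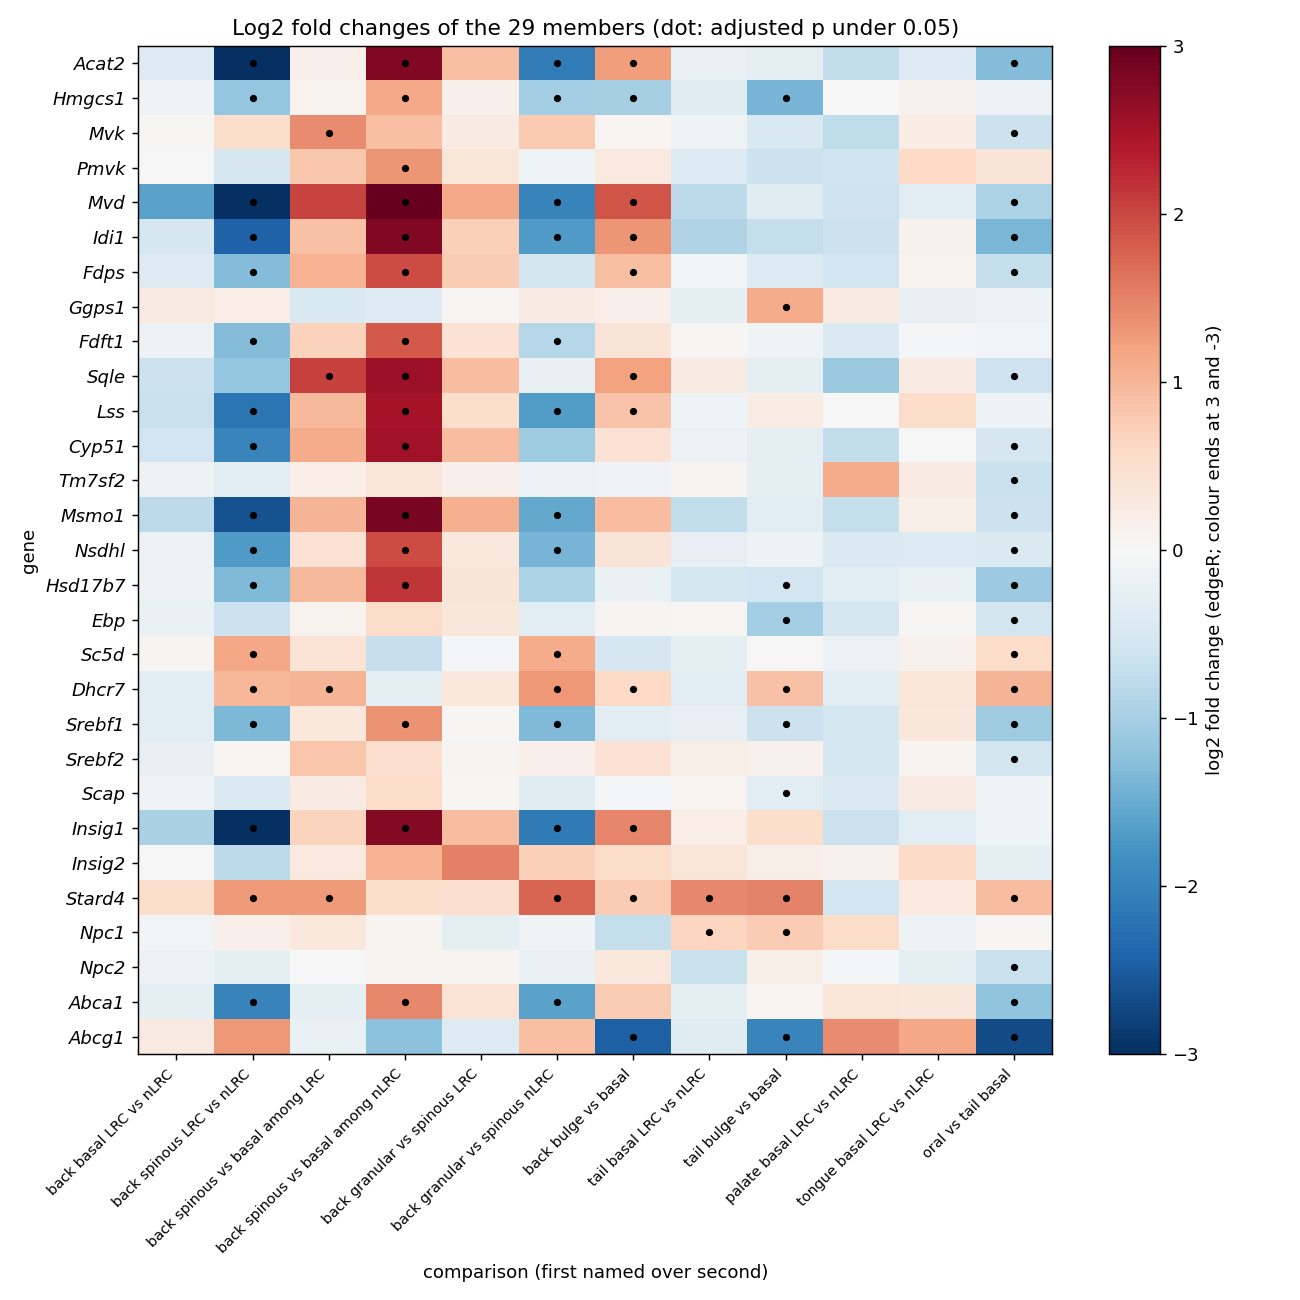
Log2 fold changes from edgeR of the 29 genes (rows) in 12 comparisons (columns, first group over second); red is higher in the first group, blue lower, the colour ends at 3 and -3, and dots mark an adjusted p under 0.05. Stard4 is red in every column but palate, and it carries a dot in 7 of the 12. Several columns share groups, so they are not independent. The comparison of tail with back basal layer, where Stard4 was lower in tail, is not shown.

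In all, 11 of the 29 genes share exonic bases with another annotated gene, so their counts are uncertain where strand was not used. They are Hmgcs1, Idi1, Fdps, Ggps1 (with Arid4b), Fdft1 (with Ctsb), Lss, Cyp51 (with Akap9), Tm7sf2, Srebf1 (with Rai1), Scap and Npc1. For Fdps, Tm7sf2 and Srebf1 a sharing gene lies on the same strand, so their counts are uncertain even where strand was used. Acat2, Mvd, Sqle, Msmo1, Dhcr7, Insig1, Insig2, Stard4, Abca1 and Abcg1 share none. Overlap within introns, whose reads the counts include, was not checked.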

How the data were processed

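The deposited tables hold, for each gene and library, the authors' read counts and TPM. The RNA was prepared from sorted cells with a stranded total RNA kit, per the labels' protocols, and build mm10 is named in the submitters' processing notes. Which aligner, counter and annotation served, and whether strand was used, is not given in the sources used here. Checked on the deposited values, the count of a gene includes intron reads, since reads per TPM and kilobase were 1.29 to 4.47 times higher in genes with long introns than in intronless genes, while TPM counts exons. Counts were therefore tested and TPM printed as levels.

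Samples were grouped by the labels. Counts were tested with edgeR 4.0.16 (quasi-likelihood, TMM scaling, filterByExpr with a minimum count of 10, total of 15) in R 4.3.3, with Benjamini-Hochberg adjustment over all genes tested and a threshold of 0.05, in 1 fit each for back skin, tail skin, oral tissue and all basal groups. SE is the fold change divided by the root of F. The code was tested on simulated counts. The 29 genes and 15 gene lists were chosen with earlier results of these data known. In each comparison the genes that passed are named, or the 12 with the smallest p, and in other lists at most 4. Some list genes are not reported here. Alternatives were DESeq2 1.42.0, its size factors within edgeR (median-of-ratios scaling), a replicate block, all genes without a filter, limma 3.58.1 on log2(TPM + 1) over genes with a mean TPM of at least 1, only the groups compared, each library left out in turn, and bulge or oral tissue against 1 group alone. The granular against basal LRC comparison and limma on TPM rescaled over protein-coding genes were added after the data had been seen.

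Replicate numbers come from the labels. Deviations of same-numbered libraries correlated over 0.1 in every pair checked between back basal, spinous and granular groups (0.151 to 0.328). The granular layer was not checked against the basal layer directly, nor LRC of one layer against nLRC of the other. They did so between tail LRC and nLRC too (0.326 to 0.585), so those libraries were regarded as paired. The main fits nevertheless used group means only, and the pairing entered only through the replicate block. No replicates were copies of each other (lowest chi-square per degree of freedom 23.1).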

Additional observations from a re-analysis of the deposited data

Results flagged for a closer look

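The LRC effect on Acat2 differed between the spinous and basal layers of back skin by -2.61 on the log2 scale (SE 0.45, edgeR adjusted p = 0.0184), being -2.999 between spinous LRC and the libraries labelled spinous nLRC and -0.39 between basal LRC and nLRC. This was a test of the difference itself, and no other member passed in this fit. With the replicate block, which pairs these libraries, 7 members passed, with DESeq2 5 and with only the groups compared 8. The call of Acat2 itself was lost in 8 of 24 alternative fits, 7 that left out a library and limma on log2(TPM + 1). In the same libraries the summed sebocyte markers were 755, 757 and 715 TPM in spinous LRC and 4795, 8057 and 3665 TPM in spinous nLRC, and their part in this result was not tested. No group held 4 or more libraries, so single libraries could not be checked for standing apart by a range test.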

How the results depend on the processing

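The number of members called moved by over 1.5 times in 8 of the 15 comparisons under some setting other than a left-out library. For the difference of LRC effects (1 gene called) it was 5 with DESeq2, 7 with the replicate block, 8 with only the groups compared and 0 with limma on log2(TPM + 1). For spinous against basal LRC (4 genes) it was 9 with DESeq2, 7 without a low-count filter, 11 with the replicate block, 8 with only the groups compared and 2 with limma. For granular layer against spinous LRC (0 genes) it was 1 with DESeq2, without the filter and with only the groups compared, and 2 with the replicate block. With limma 7 genes were called for granular layer against spinous nLRC, 9 for granular layer against basal LRC, 2 for back bulge (11 genes) and 1 for tail LRC (2 genes). Back bulge against basal nLRC alone gave 4. Without the filter tail LRC gave 5 and palate 1. The replicate block moved no other count of members by more than 1.5 times, and the cause of these differences was not tested.

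With each library of the fit left out in turn, the counts ranged from 0 to 0 for back basal LRC, 12 to 20 for spinous LRC, 0 to 4 for the difference of LRC effects, 3 to 9 for spinous against basal LRC, 11 to 20 for spinous against basal nLRC, 0 to 1 for granular against spinous LRC, 6 to 17 for granular against spinous nLRC, 13 to 17 for granular against basal LRC, 8 to 12 for back bulge, 0 to 2 for tail LRC, 7 to 11 for tail bulge, 0 to 2 for palate, 0 to 0 for tongue, 19 to 20 for tail against back and 17 to 20 for oral against tail. For spinous LRC against nLRC 12 genes were called without library 2 labelled spinous nLRC. The palate and tongue groups, with 2 libraries each, leave a lone library in such fits, which is assumed to vary like the other groups.

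Of single genes, 8 values reversed, all in tail against back. With limma on log2(TPM + 1) they were Mvd (-0.18), Fdps (-0.78), Sqle (-0.25), Lss (-0.83), Nsdhl (-0.68) and Ebp (-0.79), and with limma on TPM rescaled over protein-coding genes Ggps1 (0.28) and Srebf2 (0.039). Of the other alternative values of called genes, 2975 kept their direction and call and 279 kept only their direction. Depth was 8421582 reads or more in every library, and the limit on precision is the 2 or 3 libraries per group.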
